A study of Mus musculus with 6 samples.

Results

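The cytosolic ribosomal protein genes of mouse hepatic stellate cells were followed across a comparison of obeticholic acid with its vehicle. Members were the protein-coding genes whose symbol reads Rpl or Rps followed by a number, with at most a short paralog or letter suffix, together with Rplp0, Rplp1, Rplp2 and Rpsa. The rule gave 84 of the 24940 genes in the deposited count table: 32 of the small subunit, 49 of the large subunit and 3 of the stalk. It used symbols only and no measured value. Of these, 80 had enough counts to be tested, among 11286 tested genes in all.

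Polyadenylated RNA was sequenced from primary stellate cells, the perisinusoidal cells of the liver that store vitamin A and can turn into myofibroblasts. The cells were isolated from wild-type female C57BL/6JBomTac mice and treated on day 2 of culture. The DMSO+VIP group received vehicle alone (DMSO diluted 1:1000). The OCA+VIP group received 10 µM obeticholic acid (OCA), a bile acid analogue that activates the nuclear receptor FXR. DMSO was at 1:1000 in both groups. After 3 h, vasoactive intestinal peptide (VIP) was added to both groups at 500 nM for a further 3 h, so every library carries VIP and no library shows cells without it. Each group held 3 libraries, and the labels do not say whether these came from different animals or dishes; the p-values therefore describe the spread between these libraries, which may be technical.

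The cytosolic ribosome is built from a small subunit, which decodes the messenger RNA, and a large subunit, which forms peptide bonds and holds the tunnel through which the new protein leaves. The stalk, made of Rplp0 with Rplp1 and Rplp2, projects from the large subunit and recruits the elongation factors. Ribosomal protein mRNAs are among the most abundant of any cell, and most belong to the TOP class, whose 5′ end is a cytosine followed by a run of pyrimidines; their translation depends on the growth-sensing kinase mTORC1 and on the RNA-binding protein Larp1. Cells that leave quiescence and grow make more ribosomes.

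The start of a TOP mRNA can be read from the genome, and the starts of 9 members are shown because they hold the 5 largest fitted falls (Rpl39, Rpl22, Rpl38, Rps18 and Rps27l) and 4 members whose fitted change was close to 0. Each stretch is 50 bases from RefSeq (GRCm38.p6), 5′ to 3′ on the strand of the gene, with 20 bases before the annotated start and 30 from it. This start lay 37, 24 and 5 bases from that of the counted gene model in Rpl38, Rps18 and Rpl15, and at the same base in the others. Capitals mark a C followed by at least 4 further C or T, beginning within 5 bases of the start; Rpl22 has no such run. Pyrimidines can continue upstream of the capitals, as in Rpl14, where they begin with a C outside this window.
Rpl39 (chrX:37085193-37085242, minus strand): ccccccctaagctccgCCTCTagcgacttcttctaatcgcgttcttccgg
Rpl22 (chr4:152325706-152325755, plus strand): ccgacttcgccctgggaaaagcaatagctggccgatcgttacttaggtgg
Rpl38 (chr11:114668560-114668609, plus strand): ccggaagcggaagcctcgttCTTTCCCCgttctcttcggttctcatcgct
Rps18 (chr17:33955636-33955685, minus strand): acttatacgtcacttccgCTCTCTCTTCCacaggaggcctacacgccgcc
Rps27l (chr9:66946066-66946115, plus strand): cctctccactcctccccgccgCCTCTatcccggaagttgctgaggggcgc
Rpl31 (chr1:39367831-39367880, plus strand): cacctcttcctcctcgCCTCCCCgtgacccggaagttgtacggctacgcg
Rpl14 (chr9:120571497-120571546, plus strand): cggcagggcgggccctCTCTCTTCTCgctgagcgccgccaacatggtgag
Rpl15 (chr14:18270957-18271006, minus strand): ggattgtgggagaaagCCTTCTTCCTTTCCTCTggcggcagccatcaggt
Rpl22l1 (chr3:28805488-28805537, plus strand): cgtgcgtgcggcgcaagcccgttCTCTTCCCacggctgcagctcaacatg

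Of the 64 members with a promoter in the RefSeq table, 30 (46.9%) held such a run on the gene's strand, against 21.2% of all 27025 genes in that table and 24.4% of the 8875 tested genes found in it. The run was present in 8 of the 12 members called lower and in 21 of the 48 tested members that were not called. Median log2 fold changes were -0.43 for the 29 tested members with a run and -0.39 for the 31 without, so members on either side of this description moved by about the same amount. A match is a property of the annotated start, which need not be the start used in these cells.

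Total counts were 4574160.5, 2839106 and 3733035.5 in DMSO+VIP libraries 1 to 3 and 4534359.5, 9947968 and 5804978.5 in OCA+VIP libraries 1 to 3. OCA+VIP library 2 thus held 3.50 times the counts of DMSO+VIP library 2, and only DMSO+VIP library 1 and OCA+VIP library 1 had near-equal totals (ratio 0.991). Defining stellate cell markers were present in both groups. Of 17 on the list, edgeR called 5 higher and 4 lower, against 5.72% and 6.04% of all tested genes. Among those called were Hgf (log2 fold change -2.11), Col1a1 (-1.79), Acta2 (-1.24), Colec11 (2.17) and Dcn (0.98). Desmin (Des), also called lower, was at 146 ± 9.9 CPM in DMSO+VIP and 102 ± 12.8 CPM in OCA+VIP, and the retinol esterification enzyme Lrat was at 3.94 ± 3.84 and 8.28 ± 4.92 CPM (SD, n = 3 libraries each). CPM values use the library size after TMM scaling, a correction for differences in RNA composition.

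Ribosomal protein RNA made up a smaller part of the libraries that received OCA, on average. The 84 genes together took 2.01%, 2.48% and 2.31% of the counts in DMSO+VIP libraries 1 to 3 and 1.94%, 1.39% and 1.91% in OCA+VIP libraries 1 to 3. All 3 OCA+VIP values lay below the 3 DMSO+VIP values, although the distance between the lowest vehicle library and the highest OCA library was small. Group means were 2.27% ± 0.236 and 1.75% ± 0.307 (SD, n = 3). Small-subunit genes went from 0.947% ± 0.109 to 0.713% ± 0.126, large-subunit genes from 1.15% ± 0.107 to 0.910% ± 0.155 and stalk genes from 0.170% ± 0.0210 to 0.125% ± 0.0275. In RNA from whole cultures, fewer cells of a type and less RNA per cell cannot be told apart.

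The 3 structural groups moved together from library to library. Relative to each gene's mean over the 6 libraries, the median member stood at 0.02, 0.35 and 0.25 on the log2 scale in DMSO+VIP libraries 1 to 3 and at 0.01, -0.58 and -0.04 in OCA+VIP libraries 1 to 3. OCA+VIP library 2 was lowest and DMSO+VIP library 2 highest, and these were also the libraries with the largest and the smallest total count. DMSO+VIP library 1 and OCA+VIP library 1 stood side by side.

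**Figure D1:**
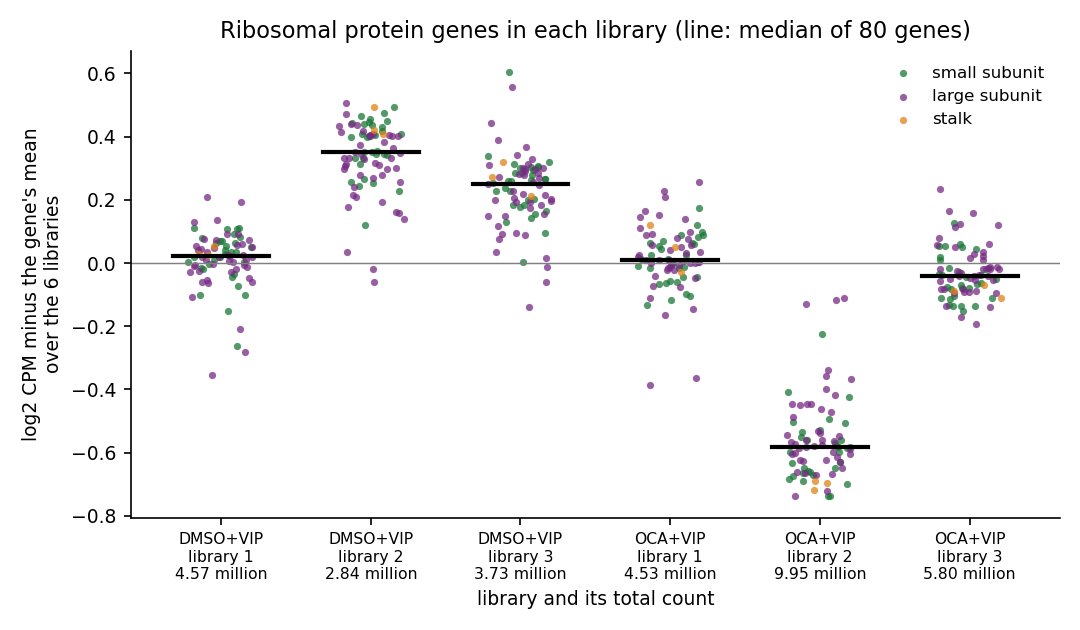
Log2 CPM of each of the 80 tested ribosomal protein genes minus that gene's mean over the 6 libraries (vertical axis), by library with its total count (horizontal axis); points are genes coloured by subunit and lines are medians. The medians of the libraries with near-equal totals, DMSO+VIP 1 (0.02) and OCA+VIP 1 (0.01), coincide, while OCA+VIP library 2 lies at -0.58 and DMSO+VIP library 2 at 0.35.

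Differences of the same kind appeared between libraries of 1 group. The median member differed by 0.33 (log2) between DMSO+VIP libraries 1 and 2, with 2 of 80 members lower in library 2, and by -0.60 between OCA+VIP libraries 1 and 2, with all 80 lower in library 2. Between DMSO+VIP library 1 and OCA+VIP library 1 the median difference was 0.01, and 37 of 80 members were lower in the OCA+VIP library. The median percent coefficient of variation of members was 11.8 within DMSO+VIP and 21.8 within OCA+VIP. It was 11.3 within either group for 6881 other genes, those whose mean CPM was at least that of the lowest member (26.0). This set has only a lower bound and was not matched to the members in level. Across both groups, the level of the members tended to be lower in libraries with a larger total.

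Tested gene by gene with edgeR's quasi-likelihood test, with p-values adjusted by Benjamini-Hochberg across the 11286 genes, 19 of 80 members were lower in OCA+VIP at an adjusted p under 0.05, none was higher and 61 were not called. Among all tested genes, 6.04% were called lower and 5.72% higher. At an unadjusted p under 0.05 edgeR gave 59 members lower and none higher (1473 and 1457 of all 11286 tested genes), and DESeq2 and limma-voom also called none higher. The lower calls were 9 of 32 small-subunit, 8 of 45 tested large-subunit and 2 of 3 stalk genes. In 32 members (14 small-subunit, 16 large-subunit and 2 stalk genes) all 3 OCA+VIP libraries lay below all 3 DMSO+VIP libraries, which held for 15.2% of all tested genes. In no member did they lie above, which held for 15.8% of all tested genes.

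Fitted log2 fold changes (OCA+VIP against DMSO+VIP) were below 0 in 78 of 80 members, with a median of -0.40, quartiles of -0.47 and -0.32, and a range from -0.72 (Rpl39) to 0.07 (Rpl22l1). The median over all tested genes was 0.00, and that of the same 6881 other genes was 0.03. The median was -0.44 for small-subunit, -0.39 for large-subunit and -0.50 for stalk genes. The member median stayed below 0 under each scaling tried, from -0.45 with cyclic loess, where limma called no member lower (38 at an unadjusted p under 0.05), to -0.31 with an offset by counts per exon base. The SD of the fold changes over members was 0.15, and the median standard error of a member was 0.15. That error includes variation between libraries that members share, so it does not measure the spread expected over members. The SD over the 6881 other genes was 0.40.

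**Figure D2:**
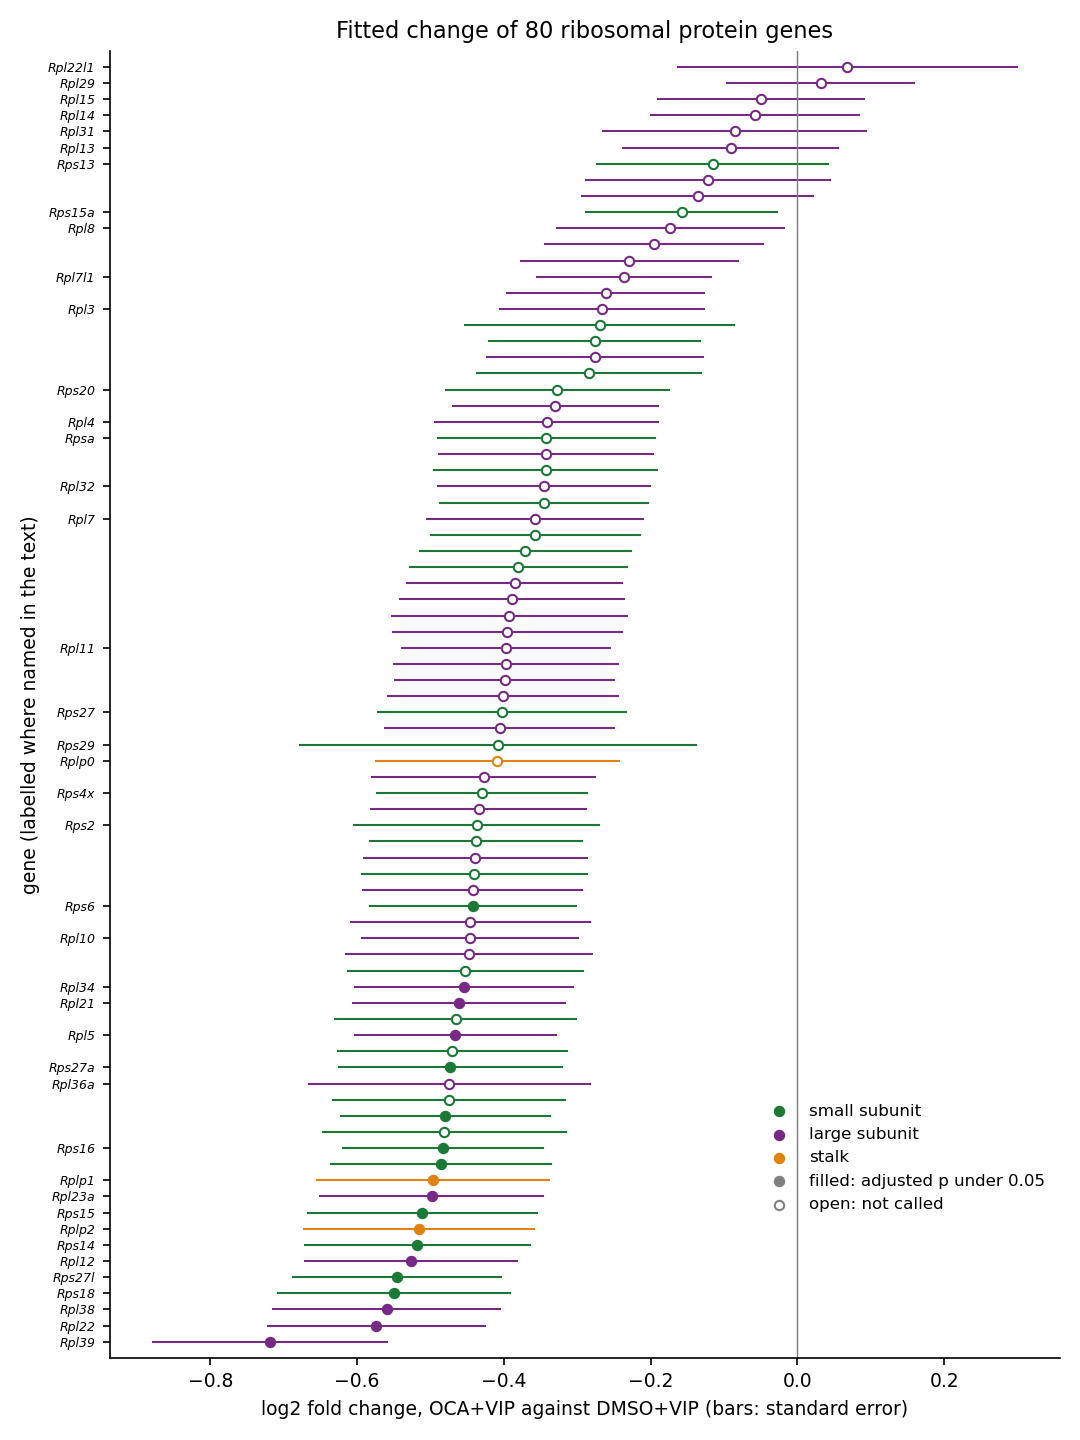
Fitted log2 fold change of each tested ribosomal protein gene (horizontal axis, bars are standard errors) in order of size, with genes of the text labelled, coloured by subunit, with filled points for edgeR adjusted p under 0.05. The 19 filled points all lie below -0.44, and most of the 80 bars overlap the median of -0.40.

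The calls rested on few libraries. With DMSO+VIP library 2 left out, and likewise with library 3, edgeR called 1 of 80 members lower, against 4.53% and 4.32% of all tested genes in those fits. Leaving out OCA+VIP library 2 gave 4 of 80 members, against 6.34% of all genes, and OCA+VIP library 3 gave 7, against 3.41%. The member share was thus at or below that of all genes in 3 of these fits. Leaving out DMSO+VIP library 1 or OCA+VIP library 1 gave 16 and 22 calls, against 3.84% and 3.68% of all genes. With the smallest and the largest library left out together (DMSO+VIP library 2 and OCA+VIP library 2), edgeR called no member (9 lower at an unadjusted p under 0.05) while 6.14% of all genes were called lower. The median log2 fold change of members was then -0.15, with 13 of 80 above 0. Rpl39 was the only member called on leaving out each library in turn.

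Among large-subunit genes, Rpl39 had the largest fall. It encodes a very short protein that lines the exit tunnel, and the gene lies on chromosome X (37082518 to 37085222, mm10). Its level was 83.3, 108 and 104 CPM in DMSO+VIP libraries 1 to 3 and 59.3, 52.3 and 67.7 CPM in OCA+VIP libraries 1 to 3. The groups did not overlap, and the libraries of near-equal total were also apart. The log2 fold change was -0.72 (SE 0.16, adjusted p = 0.0043 by edgeR), a level 39.2% lower. It ranged from -0.83 to -0.62 on leaving out each library, with edgeR adjusted p from 0.0065 to 0.025. Without the smallest and the largest library it was -0.55, with an adjusted p of 0.055.

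Rpl22, an RNA-binding protein that ribosomes can do without and that is known to restrain its own paralog, stood at 227, 290 and 277 CPM in DMSO+VIP libraries 1 to 3 and at 199, 135 and 201 CPM in OCA+VIP libraries 1 to 3. The groups did not overlap. Its log2 fold change was -0.57 (SE 0.15, adjusted p = 0.012 by edgeR). The call was lost when DMSO+VIP library 2 or 3 was left out, where the adjusted p by edgeR reached 0.063.

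Rpl38, known for its role in the translation of Hox messages in the embryo, was at 121, 140 and 128 CPM with vehicle and at 94.7, 66.9 and 104 CPM with OCA. Every OCA+VIP library lay below every DMSO+VIP library, with a log2 fold change of -0.56 (SE 0.15, adjusted p = 0.020 by edgeR). Rpl12, which sits at the base of the stalk, was at 357, 423 and 400 CPM with vehicle and at 320, 205 and 296 CPM with OCA. It also showed no overlap, with a log2 fold change of -0.53 (SE 0.14, adjusted p = 0.019 by edgeR).

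The other 4 large-subunit genes called lower were Rpl23a, a docking site for the signal recognition particle at the tunnel exit, Rpl5, which carries the 5S ribosomal RNA and can bind Mdm2, Rpl21 and Rpl34. Their log2 fold changes were -0.50, -0.47, -0.46 and -0.45. Rpl5 stood at 167, 240 and 209 CPM with vehicle and at 157, 131 and 157 CPM with OCA. Its DMSO+VIP library 1 lay only just above the OCA+VIP libraries. Rpl34 was at the threshold (adjusted p = 0.04997 by edgeR) and its groups overlapped, with 176 CPM in DMSO+VIP library 1 and 179 CPM in OCA+VIP library 1. Rpl11, the partner of Rpl5 in the 5S particle, was at 173 ± 16.1 and 131 ± 24.8 CPM (SD, n = 3) and missed the threshold (log2 fold change -0.40, adjusted p = 0.073 by edgeR).

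Large-subunit genes also held the members with the least change. Rpl29, a basic protein that also binds heparin, was at 122, 125 and 130 CPM with vehicle and at 141, 117 and 128 CPM with OCA, a log2 fold change of 0.03 (SE 0.13). Rpl15 was at 158, 157 and 155 CPM with vehicle and at 183, 121 and 152 CPM with OCA (log2 fold change -0.05, SE 0.14). In Rpl15, Rpl14 and Rpl13 the OCA+VIP library 1 was the highest or close to the highest of the 6 and OCA+VIP library 2 was the lowest. Rpl14 had a log2 fold change of -0.06 (SE 0.14), Rpl31 of -0.09 (SE 0.18) and Rpl13 of -0.09 (SE 0.15). None of these passed edgeR's test, which does not show that they were equal between groups. The direction of Rpl31 turned when DMSO+VIP library 3 (0.06) or OCA+VIP library 2 (0.07) was left out. With the smallest and the largest library left out together, Rpl14 (0.17), Rpl13 (0.16), Rpl31 (0.12) and Rpl15 (0.10) all had fitted log2 fold changes above 0.

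Among small-subunit genes, Rps18, a protein of the subunit head, had the largest fall. It was at 285, 387 and 339 CPM with vehicle and at 273, 165 and 255 CPM with OCA. The groups did not overlap, but DMSO+VIP library 1 and OCA+VIP library 1 were close. Its log2 fold change was -0.55 (SE 0.16, adjusted p = 0.026 by edgeR).

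Rps27l, a paralog of Rps27 and a known p53 target, was at 221, 271 and 255 CPM with vehicle and at 191, 132 and 189 CPM with OCA. Its groups did not overlap, and its log2 fold change was -0.55 (SE 0.14, adjusted p = 0.013 by edgeR). Rps14, whose human counterpart is lost in the 5q- syndrome, was at 327, 438 and 408 CPM with vehicle and at 319, 203 and 298 CPM with OCA. It did not overlap either, with a log2 fold change of -0.52 (SE 0.15, adjusted p = 0.029 by edgeR).

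The lower calls of the small subunit also included Rps15, Rps16, Rps27a and Rps6, with log2 fold changes between -0.51 and -0.44 and edgeR adjusted p between 0.022 and 0.045. Rps6, the classical substrate of the S6 kinases, stood at 195, 229 and 212 CPM with vehicle and at 184, 122 and 165 CPM with OCA, without overlap. Rps27a, which is made as a fusion with ubiquitin, overlapped: its DMSO+VIP library 1 was at 204 CPM and its OCA+VIP library 3 at 206 CPM. Rps15, a protein near the decoding site, overlapped as well, with 305 CPM in DMSO+VIP library 1 and 307 CPM in OCA+VIP library 1. The small-subunit gene with the least change was Rps13 (log2 fold change -0.12, SE 0.16, adjusted p = 0.71 by edgeR). Rpsa, also known as the laminin receptor precursor, was at 561 ± 61.9 and 443 ± 97.9 CPM (SD, n = 3) and missed the threshold (log2 fold change -0.34, adjusted p = 0.14 by edgeR).

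All 3 stalk genes were highest in DMSO+VIP library 2 and lowest in OCA+VIP library 2. Rplp2 was at 225, 311 and 267 CPM with vehicle and at 216, 136 and 210 CPM with OCA, a log2 fold change of -0.52 (SE 0.16, adjusted p = 0.035 by edgeR). Rplp1 was at 330, 422 and 398 CPM with vehicle and at 330, 193 and 295 CPM with OCA, a log2 fold change of -0.50 (SE 0.16, adjusted p = 0.043 by edgeR). In Rplp1 the gap between the groups was under 1 CPM. Rplp0, often used as a reference gene in quantitative PCR, was at 921, 1212 and 1049 CPM with vehicle and at 985, 561 and 852 CPM with OCA. It overlapped between groups and missed the threshold (log2 fold change -0.41, SE 0.17, adjusted p = 0.12 by edgeR).

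The members also share a technical property, the number of counts per base of their exons. In these libraries a deeper library gained less on genes of high count density. For genes other than ribosomal protein genes, the log2 ratio of counts in OCA+VIP library 2 over DMSO+VIP library 2 was 1.94 to 1.99 at a mean of up to 0.3 counts per exon base, and 1.11 above 2 counts per base. Within the vehicle group the same ratio of library 1 over library 2 went from 0.83 at the lowest density to 0.42 at the highest. The fitted log2 fold change of other genes was 0.05 at the median between 0.1 and 0.3 counts per base (2979 genes) and -0.29 above 2 counts per base (53 genes). It was also below 0 at the sparse end, at -0.12 up to 0.03 counts per base (3180 genes) and -0.03 between 0.03 and 0.1 (3296 genes).

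Members lay at the dense end of this range and, in each density range with at least 7 members, below the median of the other genes. Between 0.3 and 0.5 counts per base the median log2 fold change was -0.33 for 7 members and 0.11 for 835 other genes. Between 1 and 1.5 counts per base it was -0.34 for 21 members and -0.03 for 186 other genes. Above 2 counts per base it was -0.45 for 21 members and -0.29 for 53 other genes. Among these ranges, the distance between members and other genes was smallest in the densest. The part that count density and library total had in the fall of the members was not tested on other libraries.

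**Figure D3:**
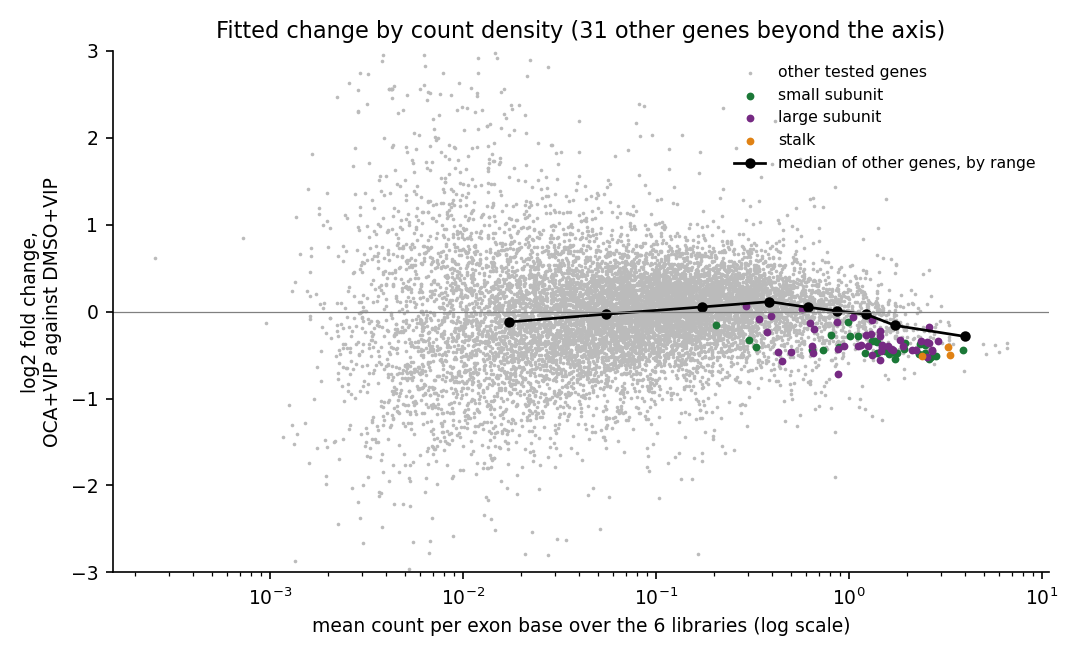
Fitted log2 fold change (vertical axis, cut at 3 in either direction, with 31 other genes beyond it) against the mean count per exon base over the 6 libraries (horizontal log axis); grey points are other tested genes, coloured points are ribosomal protein genes and the black line joins medians of other genes within density ranges. The line falls from 0.11 between 0.3 and 0.5 counts per base to -0.29 above 2, and most coloured points lie below it.

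An alternative chosen after these values were seen took out the trend of counts against density in each library, fitted on genes other than the members. The median member then stood at 0.07, 0.23 and 0.18 (log2, relative to its mean over the libraries) in DMSO+VIP libraries 1 to 3 and at -0.15, -0.24 and -0.08 in OCA+VIP libraries 1 to 3. All 3 OCA+VIP medians lay below all 3 DMSO+VIP medians. The median log2 fold change of members was -0.31, and edgeR called 47 members lower, including the 19 called without this correction, while 7.79% of all tested genes were called lower. On this scale the median of other genes above 2 counts per base was still -0.10. The log2 fold change of Rpl39 was -0.69 (adjusted p = 0.0021 by edgeR) and that of Rpl29 was 0.00.

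Per kilobase of exon, Rps2, which lies at the mRNA entry channel, had the highest level of all members, 818 ± 206 CPM per kilobase (SD over the 6 libraries). It was followed by Rplp1 at 708 ± 175, Rplp0 at 688 ± 162, Rpl4 at 596 ± 115 and Rps15 at 595 ± 152 CPM per kilobase. These neighbours differed by less than the SD over libraries. The lowest levels were those of Rps15a at 40.4 ± 5.09, Rpl22l1 at 56.9 ± 8.67, Rps20 at 62.3 ± 12.5, Rps29 at 67.5 ± 18.7 and Rpl31 at 68.3 ± 13.3 CPM per kilobase. The order was close in both groups: Rps2 ranked 1 in each, and Rps15a ranked 80 in each. Rpl8 moved most among the upper ranks, from 17 in DMSO+VIP to 5 in OCA+VIP, with 481 ± 35.04 and 427 ± 113 CPM (log2 fold change -0.17, adjusted p = 0.53 by edgeR). A low level per length can reflect the transcript model in the table, whose exon length enters the division.

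Paralog pairs were compared as a ratio of counts within each library. Such a ratio cancels the library total only for genes of like count density. Rpl22l1 relative to Rpl22 was 0.113, 0.132 and 0.102 in DMSO+VIP libraries 1 to 3 and 0.172, 0.211 and 0.168 in OCA+VIP libraries 1 to 3. All 3 OCA+VIP libraries lay above all 3 DMSO+VIP libraries, with means of 0.116 ± 0.0153 and 0.184 ± 0.0237 (SD, n = 3). An exact two-sided permutation test over the libraries gave p = 0.1, the smallest value that 3 against 3 allows, and 0.25 after Benjamini-Hochberg adjustment over 5 pairs. Rpl22l1 itself was at 25.6, 38.4 and 28.3 CPM with vehicle and at 34.3, 28.4 and 33.7 CPM with OCA, so the ratio moved with the fall of Rpl22 (log2 fold change of Rpl22l1 0.07, SE 0.23, adjusted p = 0.89 by edgeR). The mean count per exon base was 0.293 for Rpl22l1 and 0.449 for Rpl22, and the part of count density in the ratio was not tested.

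The ratio of Rps4l to Rps4x also separated the groups. Rps4l, which the table lists as a pseudogene and which is no member, was at 0.245, 0.229 and 0.276 of Rps4x with vehicle and at 0.377, 0.396 and 0.362 with OCA (exact two-sided permutation p = 0.1, adjusted 0.25 over 5 pairs). Rps4x fell short of the threshold (log2 fold change -0.43, adjusted p = 0.055 by edgeR), and Rps4l had a log2 fold change of 0.16 (adjusted p = 0.52 by edgeR). The mean count per exon base was 0.645 for Rps4l and 1.94 for Rps4x, and the part of this difference in the ratio was not tested. The other 3 pairs overlapped. Rps27l was at 2.09 ± 0.136 and 1.90 ± 0.109 times Rps27 (n = 3, exact permutation p = 0.2), Rpl7l1 at 0.371 ± 0.0137 and 0.418 ± 0.108 times Rpl7 (exact permutation p = 0.9), and Rpl36al at 1.82 ± 0.398 and 1.86 ± 0.246 times Rpl36a (exact permutation p = 0.9). Per kilobase of exon, Rps27l stood at 361 ± 86.7 and Rps27 at 184 ± 42.5 CPM over the 6 libraries.

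**Figure D4:**
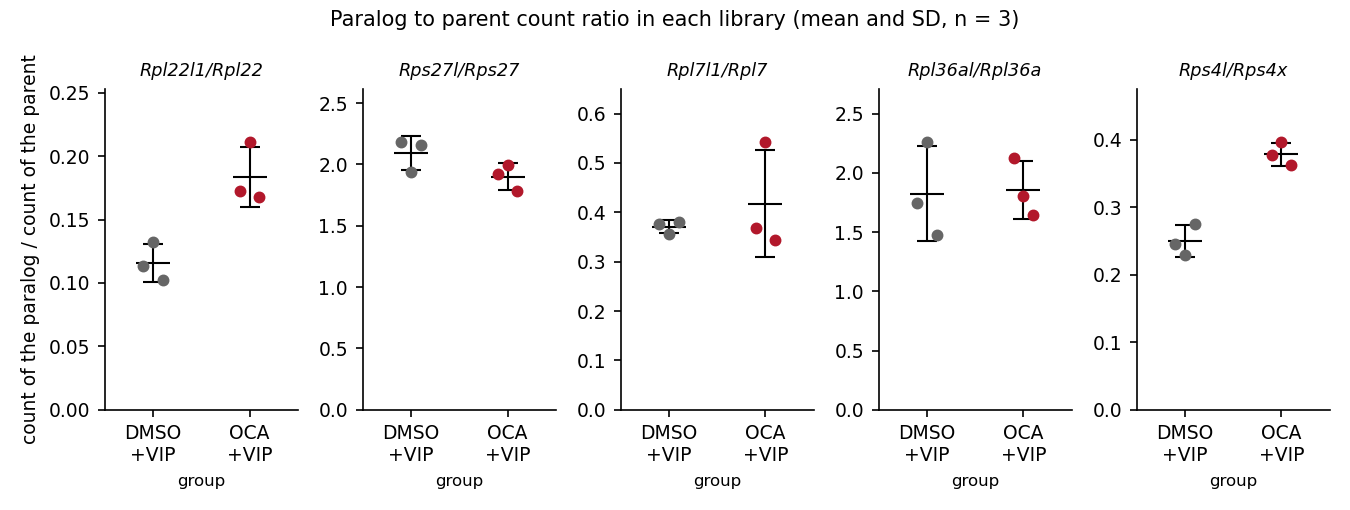
Count of the paralog divided by the count of its parent gene in each library (vertical axis, from 0) in DMSO+VIP and OCA+VIP (horizontal axis) for 5 pairs; points are libraries, long bars means and error bars SD (n = 3). For Rpl22l1/Rpl22 and Rps4l/Rps4x all OCA+VIP points lie above all DMSO+VIP points, and the other 3 pairs overlap.

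The 4 untested members are named after Rpl3, Rpl10, Rpl32 and Rpl39. Rpl10l and Rpl39l, known from the testis, had a count of 0 in all 6 libraries. Rpl3l, the striated muscle paralog of Rpl3, had 3 counts in each of OCA+VIP libraries 1 and 3 and 0 in the others. Rpl32l had 1, 0 and 1 counts with vehicle and 10, 0 and 0 with OCA. The count table gives Rpl32l as protein-coding, but GENCODE M21 gives it as a processed pseudogene that shares stretches of 50 bases with Rpl32. Among the deposited counts above 0 and up to 30, 81.2% lie within 0.5 of a multiple of 3, so low counts are coarser than single reads. With a floor of 18 counts per group, none of these 4 genes rose above the level that a count of 0 allows.

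Ribosomal protein genes have many processed copies in the genome, and counts can be shared among them. Of the 75 tested members matched to a transcript of GENCODE M21, 74 shared at least 1 stretch of 50 bases with another annotated gene, 38 shared 50% or more of their stretches, and the median was 50.8% shared with a median of 10 other genes. The median log2 fold change was -0.40 for the 38 members sharing at least 50% (7 called lower), -0.41 for 31 sharing 10% to 50% (11 called lower) and -0.28 for 6 sharing under 10% (none called lower). Across the 75 genes, which are not independent replicates, Pearson's r of shared percent and log2 fold change was 0.032. Rps27 and Rps27rt had near-equal CPM (120 ± 19.5 and 117 ± 18.6 CPM with vehicle, SD, n = 3), and so did Rpl34 and its copy Rpl34-ps1 (218 CPM and 202 CPM), so the counting may have split or repeated the same reads in these pairs and their values are uncertain.

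Other genes of the pathway were read from lists. Of 5 further ribosome components outside the symbol rule, edgeR called 1 lower and none higher, against 6.04% and 5.72% of all tested genes. Their median log2 fold change was -0.38. Rps27rt was among these 5, and its counts may repeat those of the member Rps27. Rack1, a signalling scaffold on the small subunit, was at 965 ± 123 and 744 ± 186 CPM (log2 fold change -0.38, adjusted p = 0.13 by edgeR), and Fau, which is made as a fusion with a ubiquitin-like protein, had a log2 fold change of -0.16. Rpl36al was the gene called (log2 fold change -0.43, adjusted p = 0.049 by edgeR), and leaving out any 1 library ended that call.

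A list of 19 further genes with TOP mRNAs held translation factors together with Npm1, Nap1l1, Hnrnpa1, Cnbp and Tpt1. Their TOP starts were taken as known and not checked gene by gene. The list showed no call in either direction, with a median of -0.11 for the log2 fold change and 12 of 19 below 0. At an unadjusted p under 0.05 there were 3 higher and 4 lower, and DESeq2 called 2 higher and limma-voom 1 lower. Eef1a1, which delivers aminoacyl-tRNA to the ribosome, had the smallest p and stood at 2240 ± 367 and 1602 ± 412 CPM (SD, n = 3; log2 fold change -0.48, adjusted p = 0.063 by edgeR). Eif3l, Eif4b and Eif4a2, which act in initiation, had log2 fold changes of 0.32, 0.31 and 0.32, with edgeR adjusted p of 0.097, 0.11 and 0.14. Genes of this list lay on both sides of 0, where 78 of 80 ribosomal protein genes lay below.

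Among 46 genes of nucleolar ribosome biogenesis, 3 were called higher and none lower, with a median of 0.03 for the log2 fold change; 3 of 46 is close to the 5.72% of all tested genes called higher. Sdad1, Utp15 and Rrp9, which act in the assembly of the subunits and the processing of ribosomal RNA, had log2 fold changes of 0.46, 0.47 and 0.47 (adjusted p = 0.013, 0.017 and 0.021 by edgeR). With each library left out in turn, Sdad1 and Rrp9 lost their calls in 4 of 6 fits and Utp15 in 3 of 6. For RNA polymerase I and its factors, 1 of 15 genes was called higher and none lower, with a median of 0.19. That gene, Taf1d, a subunit of the promoter selectivity factor, was at 68.2 ± 6.55 and 114 ± 19.4 CPM (SD, n = 3; log2 fold change 0.74, adjusted p = 0.0029 by edgeR) and stayed called without each library.

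Of 25 genes of mTORC1 and of TOP mRNA control, 1 was called higher and 3 lower, with a median log2 fold change of 0.11. Of all tested genes, 5.72% were called higher and 6.04% lower. Sesn2, a leucine-sensing inhibitor of mTORC1, was at 203 ± 10.8 and 306 ± 52.6 CPM (SD, n = 3; log2 fold change 0.58, adjusted p = 0.0051 by edgeR). Ddit4, another inhibitor of mTORC1, was at 229 ± 11.5 and 123 ± 13.4 CPM (log2 fold change -0.90, adjusted p = 3.5e-05 by edgeR). These 2 inhibitors of the same kinase moved in opposite directions, and both stayed called without each library. Mnt, a partner of Max that opposes Myc, and Eif4ebp1, a repressor of cap-dependent translation, had log2 fold changes of -0.57 and -0.51 (adjusted p = 0.021 and 0.038 by edgeR). With each library left out in turn, Mnt lost its call in 4 of 6 fits and Eif4ebp1 in 5 of 6. Larp1 (log2 fold change -0.03, adjusted p = 0.90 by edgeR), Mtor (-0.16, adjusted p = 0.59) and Myc (-0.07, adjusted p = 0.77) were not called.

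The kinases whose symbols begin with Rps6k are not ribosomal proteins and were kept apart. Rps6kb1 and Rps6kb2 were placed in the mTORC1 list, with log2 fold changes of 0.33 and 0.11 (adjusted p = 0.21 and 0.89 by edgeR). Of the other kinases, edgeR, DESeq2 and limma-voom called none of the 6 tested (1 higher at an unadjusted p under 0.05 in edgeR). Their median log2 fold change was 0.17. Mitochondrial ribosomal proteins, which make the separate ribosome of that organelle, had a median of -0.06 over 78 genes, with 45 below 0. Of the 78, 2 were called lower and none higher, against 6.04% and 5.72% of all tested genes. The called genes were Mrpl33 (log2 fold change -0.63, adjusted p = 0.013 by edgeR) and Mrps24 (-0.86, adjusted p = 0.042). Mrps24 lost its call in 5 of the 6 fits with a library left out, with log2 fold changes of -1.12 to -0.47, and Mrpl33 in 2 of them. The fitted falls of the cytosolic ribosomal proteins thus stood beside a mitochondrial median near that of all tested genes. The 2 sets differed in level: the 78 mitochondrial genes summed to 4374 to 5060 CPM a library. The 84 cytosolic genes summed to 13185 to 25357 CPM. The part of count density in this contrast was not tested.

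**Figure D5:**
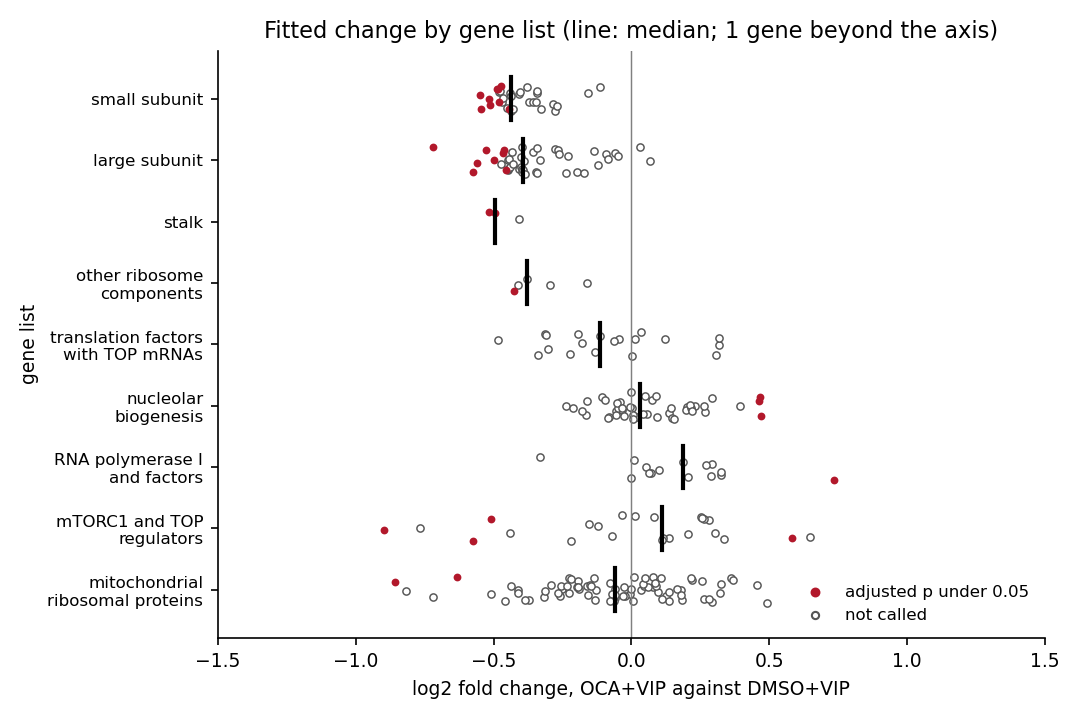
Fitted log2 fold change (horizontal axis) of the genes of each list (vertical axis); points are genes, filled red for edgeR adjusted p under 0.05, black lines are medians and 1 gene lies beyond the axis. The 3 groups of ribosomal proteins have medians between -0.50 and -0.39, and the nucleolar, RNA polymerase I and mTORC1 lists have medians of 0.03, 0.19 and 0.11.

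Markers of other liver cells were read beside these results. Of 18 hepatocyte markers 14 were tested, of which 9 were called higher and 1 lower, against 5.72% and 6.04% of all tested genes. The summed level of the 18 was 184 to 214 CPM in DMSO+VIP and 306 to 523 CPM in OCA+VIP. These sums include the gene called lower, Ass1, at 111 ± 11.1 CPM in DMSO+VIP and 64.4 ± 11.2 CPM in OCA+VIP (SD, n = 3). Albumin (Alb) was at 39.8 ± 2.31 and 147 ± 42.2 CPM (SD, n = 3), Cps1 was at 0 in every library, and Apoh, Ttr and Serpina1b were at 0 in every DMSO+VIP library. Those 3 are among the 9 higher calls and passed the filter only through OCA+VIP. OCA+VIP library 2, which had the lowest level of ribosomal proteins, had the lowest hepatocyte sum of its group. Summed macrophage markers were 15.7 to 47.5 CPM in DMSO+VIP and 32.9 to 42.4 CPM in OCA+VIP, with Ptprc, Vsig4, C1qa and C1qb at 0 in all 6 libraries. Endothelial markers summed to 4.17 to 9.80 and 9.80 to 19.0 CPM, with Lyve1 and Fcgr2b at 0, and cholangiocyte markers to 6.31 to 14.9 and 18.1 to 19.9 CPM, with Krt7 and Cftr at 0. Lymphocyte markers summed to 0 to 1.31 and 5.56 to 10.97 CPM, of which Cd79a was the only gene tested and was called higher; it was at 0 in all DMSO+VIP libraries and passed the filter only through OCA+VIP. The part of these cells in the level of the ribosomal proteins was not tested.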

How the data were processed

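Expected counts per gene over exons were deposited by the authors for 6 libraries, as values not adjusted for library size, per the file headers; the submitters' processing notes name STAR, HOMER, DESeq2 and the mm10 build with no role or version. The use of strand and the handling of duplicates are not given in the sources used here. Each column's name gave its group. Members and gene lists were chosen with earlier results of these data known. After rounding, edgeR 4.0.16 (R 4.3.3) was run with TMM, filterByExpr (minimum count 10, minimum total 15) and its two-sided quasi-likelihood F test between the groups, with Benjamini-Hochberg adjusted p over 11286 genes and a threshold of 0.05. Fold changes and errors are those of this fit; the scripts' steps were tested on simulated data. Named genes were every member called, the 5 highest and 5 lowest per length, the 5 largest falls and rises, the paralog pairs, members at 0 and the 4 genes of smallest p in each pathway list; other members, and stellate cell markers, are named after their values were seen. The results of some genes under this rule are not reported here by name; the counts include them. Alternatives covered RLE, upper-quartile and library-size scaling, filters, thresholds, DESeq2 1.42.0, limma-voom (limma 3.58.1), a replicate block, and libraries left out; a density offset, cyclic loess and leaving out 2 libraries together were chosen after seeing the data. Shared 50-base stretches came from GENCODE M21 transcripts and promoter starts from RefSeq. With total counts of 2839106 to 9947968 a library, precision for members was set by the spread between libraries more than by counting.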

Additional observations from a re-analysis of the deposited data

How the results depend on the processing

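Changes in the processing kept the median log2 fold change of members below 0, and no member was called higher under any setting, but the number of calls and the direction of some members changed. The shares in parentheses are those of all tested genes called lower in the same fit, against 19 members (6.04%). There were 33 members called lower with upper-quartile scaling (7.01%), 31 with library size only (5.62%), 47 without a filter (5.18%), 35 with DESeq2 (7.4%), 37 with limma-voom (6.63%), 1 at a threshold of 0.01 (3.06%), 40 at a threshold of 0.1 (8.62%), 47 with the offset by counts per base (7.79%), 0 with cyclic loess and limma (1.24%), and 0 without the smallest and the largest library (6.14%). Of the 80 members, 11 changed direction in that last setting and 8 without OCA+VIP library 2, against at most 1 in each other setting. RLE scaling, TMM without the members and a filter of 1 CPM gave 18 (6.1%), 19 (6.13%) and 16 (5.16%). Leaving out each library in turn gave 1 to 22 calls, medians of -0.50 to -0.22 and a log2 ratio of the summed shares of -0.46 to -0.24, against -0.38 with all libraries.

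With the replicate block by column number, edgeR called 6 of 80 members lower, all among the 19, where 5.04% of all tested genes were called lower, and the median was -0.42. The numbers were not shown to pair the libraries: deviations of same-numbered libraries correlated across genes at -0.05 to 0.03, and those of different numbers at -0.03 to 0.08.

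Of 1344 values for 64 named genes, 1065 kept their direction and their side of the threshold, 207 lost the call, 61 gained it and 11 turned. Among these, Rpl29 turned with upper-quartile scaling (-0.006) and cyclic loess (-0.033), Rpl22l1 with the offset (-0.008), and Rpl31 (0.116) and Rps15a (0.006) with the smallest and the largest library left out. On leaving out single libraries, Rpl29 ranged from -0.037 (OCA+VIP library 1) to 0.099, Rpl22l1 from -0.051 (DMSO+VIP library 1) to 0.243, Rpl31 from -0.268 to 0.066 (OCA+VIP library 2; 0.059 for DMSO+VIP library 3) and Rps6ka4 from -0.179 to 0.019 (OCA+VIP library 3; 0.001 for DMSO+VIP library 1). The cause of these differences was not tested. Totals differ by up to 3.50 times and follow the groups in part, which limits any statement on members.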

Other observations

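Values of 2 rows that are no members but share sequence with a member are given here. Rpl34-ps1 was at 202 CPM with vehicle and 142 CPM with OCA, a log2 fold change of -0.51 (edgeR adjusted p = 0.035), beside -0.45 for Rpl34. Rps27rt had a log2 fold change of -0.41 (edgeR adjusted p = 0.13), beside -0.40 for Rps27. These rows were not counted among the ribosomal protein genes, although Rps27rt was on the list of further ribosome components outside the symbol rule.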
